A study of Mus musculus with 9 samples.

Results

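The 9 genes described here lie next to Pcgf6 on mouse chromosome 19: Nt5c2 and Ina at lower coordinates than Pcgf6, and Taf5, Pdcd11, Calhm2, Calhm1, Calhm3, Neurl1a and Sh3pxd2a at higher ones. They were taken by name for their position out of 55341 genes in the count files, with earlier results of these data known. Pcgf6 itself was left out. The question is whether deletion at the floxed Pcgf6 locus goes with a change in the genes around it. Small-intestinal crypts of male C57BL/6 mice, 8 to 12 weeks old, were sequenced by Smart-seq2, a full-length RNA-seq method for small inputs. The 4 groups were AhCre Pcgf6 knockout (KO, n = 2), AhCre wild type (WT, n = 2), Villin CreERT2 Pcgf6 KO (n = 2) and Villin CreERT2 WT (n = 3). Both AhCre groups received beta-naphthoflavone (BNF), which switches on the AhCre transgene through the aryl hydrocarbon receptor. Both Villin groups received tamoxifen (TAM) per their titles, although a description line names BNF for them too, and Villin CreERT2 is active in intestinal epithelium, so that other cells of a crypt preparation keep Pcgf6. The interval since induction is 15 days in the titles and 7 days in a second name of each library and in the design text. Whether WT mice carried the floxed allele or a Cre, which exons are deleted, and whether replicates are separate mice are not given in the labels, so the spread between replicates may be partly technical.

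PCGF6 is the defining subunit of the variant Polycomb repressive complex PRC1.6, which is recruited to promoters by DNA-binding partners such as the dimer of MGA and MAX and by E2F6. The genes around it have unrelated jobs. TAF5 is a scaffold subunit of the general transcription factor TFIID, and PDCD11 acts in the processing of pre-ribosomal RNA. NT5C2 is a cytosolic nucleotidase that acts on purine nucleotides. CALHM1, CALHM2 and CALHM3 belong to the calcium homeostasis modulator family of large-pore channels, and CALHM1 with CALHM3 forms the channel that releases ATP from taste receptor cells. NEURL1A is a ubiquitin ligase related to Drosophila neuralized, which acts on Notch ligands in flies. SH3PXD2A, also called TKS5, is a scaffold of podosomes and invadopodia, and INA is a neuronal intermediate filament protein.

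In GENCODE coordinates of build GRCm38, Pcgf6 spans 47033617 to 47050906 of chromosome 19 on the minus strand. Ina (47014698 to 47025327, plus strand) and Taf5 (47067746 to 47083479, plus strand) are the nearest protein-coding genes on either side, with gaps of 8.29 kb and 16.8 kb to Pcgf6. Nt5c2 (46883317 to 47015153, minus strand) lies 18.5 kb away on the lower side. On the higher side the order is Pdcd11 (47090768 to 47131865, plus strand, 39.9 kb), Calhm2 (47105353 to 47138294, minus strand, 54.4 kb), Calhm1 (47140909 to 47144254, minus strand) and Calhm3 (47151609 to 47157764, minus strand, 101 kb). Neurl1a (47178820 to 47259441, plus strand) follows at 128 kb, and Sh3pxd2a (47260174 to 47464401, minus strand) at 209 kb.

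RefSeq promoter sequence (GRCm38.p6) was matched for 7 of the 9 genes. The 250 bases before the annotated start were searched on both strands for motifs of the PRC1.6 partners: the E-box CACGTG, the E2F core GCGGGAA and the T-box motif AGGTGTGA. Among 32851 promoter windows of the same length, these motifs occurred in 6.02%, 3.82% and 1.12%. Neurl1a is shown because it was called higher in Villin KO crypts, and Taf5 because it was the gene that lay below WT in both drivers. Calhm1 is shown because it is a channel gene that was almost silent. Capitals mark the E2F core, which was found in the Neurl1a window at bases 217 to 223 counted from the 5′ end. None of the 3 motifs was found in the Taf5 and Calhm1 windows.
Neurl1a, chr19:47178570-47178819, plus strand: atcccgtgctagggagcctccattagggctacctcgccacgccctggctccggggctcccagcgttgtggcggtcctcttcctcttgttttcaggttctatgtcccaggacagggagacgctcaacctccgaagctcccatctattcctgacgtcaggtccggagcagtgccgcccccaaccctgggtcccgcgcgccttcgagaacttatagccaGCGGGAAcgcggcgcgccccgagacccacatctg
Taf5, chr19:47067498-47067747, plus strand: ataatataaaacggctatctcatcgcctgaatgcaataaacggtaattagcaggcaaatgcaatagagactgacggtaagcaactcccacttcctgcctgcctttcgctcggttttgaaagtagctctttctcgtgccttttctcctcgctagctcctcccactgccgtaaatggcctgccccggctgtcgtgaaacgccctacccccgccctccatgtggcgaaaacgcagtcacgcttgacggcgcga
Calhm1, chr19:47144175-47144424, minus strand: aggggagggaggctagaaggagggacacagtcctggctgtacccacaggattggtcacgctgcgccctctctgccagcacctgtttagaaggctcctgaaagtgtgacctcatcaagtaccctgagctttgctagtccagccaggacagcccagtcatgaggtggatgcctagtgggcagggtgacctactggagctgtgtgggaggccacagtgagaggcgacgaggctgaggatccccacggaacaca
The Neurl1a window held 21 CpG dinucleotides and the Taf5 window 19, against 5 in the Calhm1 window and a median of 6 over all windows. Of all windows, 83.7% had fewer CpG than Neurl1a, 80.3% fewer than Taf5 and 44.4% fewer than Calhm1. Of the other windows, an E-box was found in 1 of the 7 alternative Nt5c2 starts, and the windows of Ina, Pdcd11 and Calhm2 held none of the motifs.

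The AhCre KO libraries held 9263993 to 10179884 counts and the AhCre WT libraries 10645569 to 12377921. The Villin KO libraries held 7146764 to 8339149 counts and the Villin WT libraries 6455098 to 7013456. Levels are given in CPM, counts relative to the TMM-scaled library total, and 3 counts correspond to 0.194 to 0.615 CPM in a library. All 13 epithelial markers were detected in each library. Genes were tested with edgeR's quasi-likelihood test on all 9 libraries and p-values were adjusted by Benjamini-Hochberg over 16250 genes, with a call at an adjusted p under 0.05. Calls over all genes were made for 541 higher and 468 lower in Villin KO (704 and 388 with DESeq2 size factors), and for 1 gene in AhCre KO. The median log2 fold change of all tested genes was -0.18 in Villin and -0.0048 in AhCre. The Villin replicates differed more from each other than the AhCre replicates, with 43.3 to 63.6 against 6.48 to 10.8 for the chi-square per degree of freedom between 2 libraries of a group.

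The targeted gene was lower in KO libraries of both drivers. Pcgf6 had 7.20 and 5.90 CPM in AhCre KO, against 14.1 and 10.1 CPM in AhCre WT. In the Villin groups it had 3.07 and 2.47 CPM in KO, against 10.8, 12.7 and 9.44 CPM in WT. The groups did not overlap in either driver. The log2 fold change was -1.99 ± 0.42 (SE) in Villin with an edgeR adjusted p of 0.022, and -0.89 ± 0.40 in AhCre with an adjusted p of 1.0. In AhCre it was called with AhCre fitted alone (-0.88, edgeR adjusted p = 0.0346) and with limma-voom (-0.88, adjusted p = 0.0391). The Villin call of Pcgf6 was lost without Villin WT 1, Villin KO 1 or any 1 AhCre library, with edgeR adjusted p up to 0.075 and log2 fold changes of -2.15 to -1.75 over all 9 left-out libraries. In bulk libraries such as these, fewer cells of a type and less RNA per cell cannot be told apart.

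Among the neighbours, Calhm3 and Neurl1a were called higher in Villin KO crypts, mostly through Villin KO 1. In Villin KO 2, Calhm3 had 2 counts and Neurl1a had 0.926 CPM, against up to 0.899 CPM in Villin WT. Without Villin KO 1 the Villin log2 fold change was 0.20 for Neurl1a and 4.64 for Calhm3. Taf5 and Nt5c2, the nearest tested genes to Pcgf6, did not pass the test in any of the 4 contrasts. Of the 9 genes, 7 passed the low-count filter and were tested, while Ina and Calhm1 did not pass it. In Villin, 2 of the 7 were called, both higher, where 6.21% of all tested genes were called in either direction and 3.33% higher. Calhm3 reached 1 CPM only in KO libraries and so passed the filter through the groups where it is high, which makes the share of 7 no measure of the 9 genes. With limma-voom neither was called in Villin (Calhm3 log2 fold change 3.72 with an adjusted p of 0.173, Neurl1a 1.88 with 0.403). In AhCre, none of the 7 was called by edgeR, where 0.00615% of all genes were called. In AhCre, limma-voom called 2 and DESeq2 called 0, with no adjusted p for Calhm3. Of 16250 genes, limma-voom called 518 higher and 393 lower in AhCre, far more than edgeR did. At an unadjusted p under 0.05 the AhCre edgeR count was 1, Calhm3, against 3.53% of all genes. For the average of the KO effects of the 2 drivers, Calhm3 was called, against 1.17% of all genes. The difference between the drivers, taken as the AhCre KO effect minus the Villin KO effect, gave no call among the 7 by edgeR, DESeq2 or limma-voom, against 0.0738% of all genes by edgeR, and 1 at an unadjusted p under 0.05, Sh3pxd2a, against 15.9% of all genes.

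**Figure D1:**
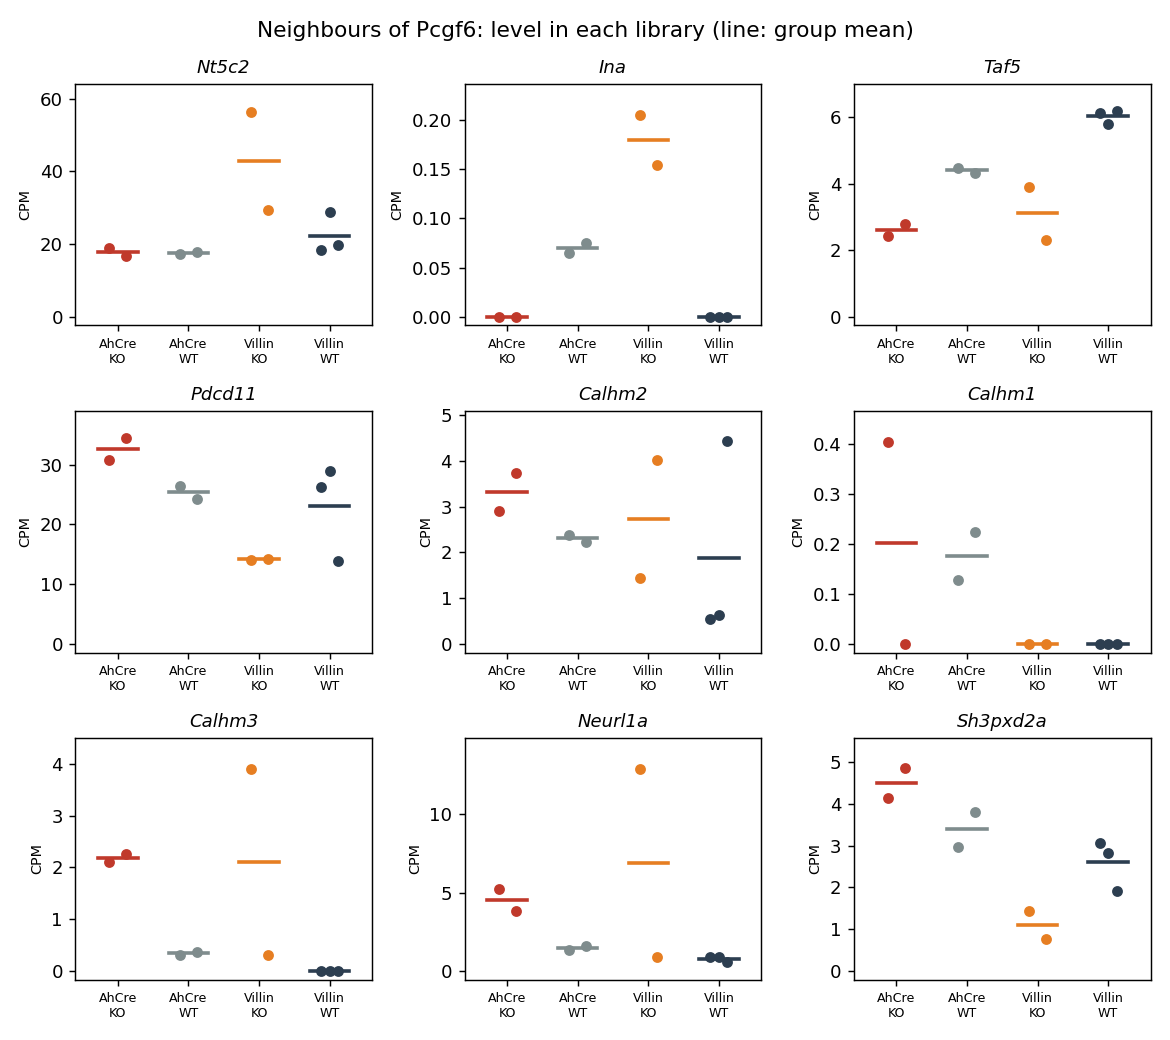
Level in CPM (y axis, linear, a separate scale for each gene) of the 9 neighbours of Pcgf6 in each library; points are libraries of the AhCre KO, AhCre WT, Villin KO and Villin WT groups and lines are group means. Calhm3 and Neurl1a lay higher in KO than in WT libraries in both drivers, Taf5 lay lower in both, and Ina and Calhm1 stayed below 0.5 CPM in each library.

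Taf5, the TFIID scaffold on the higher side of Pcgf6, lay below WT in both drivers. It had 2.43 and 2.78 CPM in AhCre KO, against 4.46 and 4.33 CPM in AhCre WT. In Villin it had 3.89 and 2.31 CPM in KO, against 6.11, 5.77 and 6.17 CPM in WT. Each KO library was lower than each WT library of its driver, a pattern that 4.12% of all tested genes showed. The log2 fold change was -0.96 ± 0.45 (SE) in Villin with an edgeR adjusted p of 0.196, and -0.75 ± 0.46 in AhCre with an adjusted p of 1.0. For the average of both drivers it was -0.86 (95% interval -1.56 to -0.16) with an edgeR adjusted p of 0.253, so Taf5 was not called. The log2 fold change for the average stayed between -1.06 and -0.69 when any 1 library was left out. Counts of 15 to 69 per library limit the precision.

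Ina, the closest protein-coding gene to Pcgf6, was not detectably expressed at this depth. It had 0 counts in both AhCre KO libraries, against 1 count in each AhCre WT library. Villin KO libraries had 1 count each and Villin WT libraries had 0. All of these lie at or under the floor of 3 counts, so no fold is given. The neuronal and glial markers were also scarce, with a summed level of 4.24 to 13.4 CPM over 17 genes. Of the Ina exon bases, 456 (14.1%) are shared with Nt5c2 on the opposite strand, and the Smart-seq2 libraries do not record the strand of a read.

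Nt5c2, the nucleotidase gene, did not pass the adjusted test in either driver. It had 18.8 and 16.7 CPM in AhCre KO, against 17.3 and 18.0 CPM in AhCre WT, and these values overlapped. In Villin it had 56.3 and 29.5 CPM in KO, against 18.5, 29.0 and 19.7 CPM in WT. There the groups did not overlap, but the lower KO library lay within 0.5 CPM of the highest WT library. It lay above only after TMM scaling (factors of 0.779 and 1.12). Villin KO 2 had 191 counts and Villin WT 2 had 226, although the total count of Villin KO 2 was the higher. The Villin log2 fold change was 0.93 ± 0.35 (SE) with an edgeR adjusted p of 0.119. Without Villin KO 2 it was 1.33 and was called (edgeR adjusted p = 0.0297), while without Villin KO 1 it was 0.39.

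Pdcd11, the ribosomal RNA processing factor, was the most abundant of the 9 genes per exon length in AhCre. Its level per kilobase of exon averaged 3.34 CPM in AhCre KO and 2.60 CPM in AhCre WT, against 1.61 and 1.60 CPM for Nt5c2 in the same groups. In Villin the per-kilobase order of the 2 genes was reversed in KO, with 1.45 CPM for Pdcd11 and 3.89 CPM for Nt5c2. Pdcd11 had 30.8 and 34.4 CPM in AhCre KO, against 26.4 and 24.3 CPM in AhCre WT. It had 14.1 and 14.2 CPM in Villin KO, against 26.2, 29.0 and 13.9 CPM in Villin WT. The AhCre groups did not overlap and the Villin groups did, because Villin WT 3 lay below both KO libraries. The log2 fold change was 0.36 ± 0.37 (SE) in AhCre and -0.70 ± 0.36 in Villin, with edgeR adjusted p of 1.0 and 0.233. The difference of the KO effects was 1.07 (95% interval -0.05 to 2.19, adjusted p = 0.335).

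The 3 channel genes of the Calhm cluster differed from each other in these crypts. Calhm3, which pairs with CALHM1 in taste cells, had 2.10 and 2.25 CPM in AhCre KO (26 counts each), against 0.323 and 0.373 CPM in AhCre WT (5 counts each). In Villin it had 3.89 and 0.309 CPM in KO (19 and 2 counts), and 0 counts in each of the 3 WT libraries. KO libraries lay above WT libraries in both drivers, and the 2 counts of Villin KO 2 are under the floor of 3. In AhCre the ratio of summed levels was 6.29 (95% interval 3.16 to 13.9 for counting error). In Villin the level was at least 11.4-fold higher in KO than the limit that 0 counts over the WT group allow, which is 0.162 CPM.

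The edgeR log2 fold change of Calhm3 was 7.22 ± 1.69 (SE) in Villin with an adjusted p of 0.0367, where the size depends on the prior count because the WT libraries hold none. It was 2.60 ± 0.94 in AhCre by edgeR, with an adjusted p of 1.0, and 4.91 ± 0.97 for the average of both drivers, with an adjusted p of 0.0429. The Villin call of Calhm3 was lost without any 1 library other than Villin WT 3 or Villin KO 2, with values of 4.64 without Villin KO 1 to 8.22 without Villin KO 2 and edgeR adjusted p up to 0.214. The call for the average was lost without any 1 library other than Villin KO 2. When AhCre was fitted alone, Calhm3 (log2 fold change 2.63, edgeR adjusted p = 0.0024) and Neurl1a (1.61, adjusted p = 0.00607) were both called, and when Villin was fitted alone neither was, with adjusted p of 0.0614 and 0.0917. Of 16250 genes, 581 were called higher and 448 lower with AhCre fitted alone, and 227 and 19 with Villin fitted alone.

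Calhm1 was near the floor in all groups. It had 5 and 0 counts in AhCre KO, against 2 and 3 counts in AhCre WT. All 5 Villin libraries had 0 counts, which allows up to 0.264 CPM over the KO group and 0.162 CPM over the WT group. Calhm1 thus had counts in 3 of the 9 libraries, while Calhm3 had counts in 6.

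Calhm2 was detected in each library and was not called. It had 2.91 and 3.73 CPM in AhCre KO, against 2.39 and 2.24 CPM in AhCre WT, without overlap. In Villin it had 1.43 and 4.01 CPM in KO, against 0.539, 0.641 and 4.43 CPM in WT, with overlap in both directions. The edgeR log2 fold changes were 0.52 ± 0.80 (SE) in AhCre and 0.61 ± 0.80 in Villin, with adjusted p of 1.0 and 0.662. Of its exon bases 436 (10%) are shared with Pdcd11 on the opposite strand, so that reads there cannot be assigned to one gene. In the table of RefSeq genes Calhm3 is annotated as a pseudogene, while GENCODE gives it as protein coding, and no 50-base stretch of Calhm3 or Calhm1 exons occurred in the exons of another gene.

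Neurl1a, the ubiquitin ligase gene, had 5.26 and 3.82 CPM in AhCre KO, against 1.36 and 1.64 CPM in AhCre WT. In Villin it had 12.9 and 0.926 CPM in KO, against 0.899, 0.898 and 0.578 CPM in WT. The KO libraries lay above the WT libraries in both drivers, but Villin KO 2, with 6 counts, lay above Villin WT 2, with 7 counts, only after TMM scaling (factors of 0.779 and 1.12), since its total count was the higher of the 2. The log2 fold change was 3.07 ± 0.83 (SE) in Villin with an edgeR adjusted p of 0.0487, and 1.59 ± 0.83 in AhCre with an adjusted p of 1.0. For the average it was 2.33 ± 0.59 (adjusted p = 0.0885), which was not called. Without Villin KO 1 the Villin value was 0.20 with an edgeR adjusted p of 0.90, and without Villin KO 2 it was 3.99. The Villin call was lost without any 1 library other than Villin KO 2.

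A gene inside the Neurl1a body was also called higher in Villin KO crypts. AC132288.1 (47220713 to 47221909, minus strand) is annotated as an antisense transcript and shares no exon base with Neurl1a. It had 1.70 and 1.47 CPM in AhCre KO, against 0.775 and 0.373 CPM in AhCre WT. In Villin it had 4.10 and 1.54 CPM in KO (20 and 10 counts), and 0 counts in each WT library. The level pooled over the KO libraries was 16.3 times the limit of 0.162 CPM that 0 counts over the WT group allow. The edgeR log2 fold change was 7.68 ± 1.30 (SE) in Villin (adjusted p = 0.0138) and 1.43 ± 0.72 in AhCre (adjusted p = 1.0). It kept its Villin call without any 1 library except Villin WT 1 or Villin KO 1. Reads from unspliced Neurl1a RNA and from this antisense gene cannot be told apart without strand. Another gene, AC132288.2 on the strand of Neurl1a, shares 690 of the Neurl1a exon bases (9.47%) and had 0 to 2 counts per library.

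**Figure D2:**
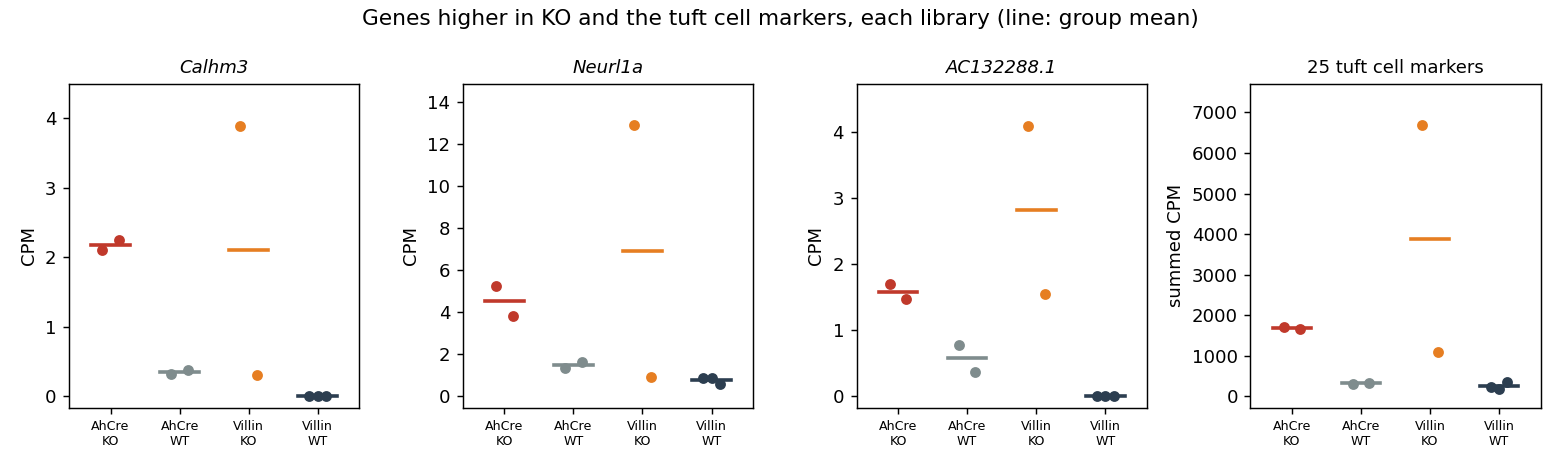
Level in CPM of Calhm3, Neurl1a and the antisense gene AC132288.1, and the summed level of 25 tuft cell markers (y axes, linear), in each library; lines are group means. In each panel Villin KO 1 is the highest library, and the 25 markers sum to 6682 CPM there against 1085 CPM in Villin KO 2.

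Tuft cell markers were higher in KO than in WT libraries of both drivers, as Calhm3 and Neurl1a were. In Villin KO 2, however, Neurl1a at 0.926 CPM was near its highest Villin WT level of 0.899 CPM, and Calhm3 had 2 counts. The 25 markers, which include the transcription factor Pou2f3, the channel Trpm5 and the kinase Dclk1, summed to 1703 and 1672 CPM in AhCre KO, against 317 and 320 CPM in AhCre WT. In Villin they summed to 6682 and 1085 CPM in KO, against 243, 175 and 357 CPM in WT. Of the 25, 23 were called higher in Villin (median log2 fold change 4.10) and none in AhCre, where all 25 were higher at an unadjusted p under 0.05 (median 2.49). Il25 was at 0 in Villin WT 1 and Villin WT 3, and no other marker was at 0 in any library. Villin KO 1, the library with the highest tuft marker level, was also the highest for Calhm3, Neurl1a, AC132288.1 and Nt5c2. The same library had the highest sums of epithelial markers (19375 CPM) and of absorptive enterocyte markers (73748 CPM). In AhCre, Nt5c2 had a log2 fold change of 0.01 ± 0.38 (SE). The part of tuft cell number in the values of Calhm3, Neurl1a, AC132288.1 and Nt5c2 was not tested.

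Markers of other cell types were set beside the neighbours as well. Stromal markers summed to 72.1 to 76.5 CPM in AhCre KO, against 168 to 169 CPM in AhCre WT, and to 179 to 190 CPM in Villin KO, against 20.4 to 173 CPM in Villin WT. Absorptive enterocyte markers were called higher in Villin KO for 10 of 15 genes and summed to 51129 to 73748 CPM there, against 22221 to 36671 CPM in Villin WT. In AhCre none of the 15 was called by edgeR, with 2 lower at an unadjusted p under 0.05 and 12 with a log2 fold change under 0, and they summed to 10138 to 10250 CPM in KO, against 11060 to 12404 CPM in WT. Leukocyte markers spanned 887 to 2806 CPM in Villin KO and 108 to 2572 CPM in Villin WT. Of the 13 epithelial markers, 3 were called in Villin: the proliferation gene Mki67 (log2 fold change -2.16, edgeR adjusted p = 0.0131) and the stem cell gene Lgr5 (-1.40, adjusted p = 0.038) lower, and the keratin Krt18 (1.76, adjusted p = 0.0405) higher. In AhCre none of the 13 was called by edgeR or at an unadjusted p under 0.05, with 0.31 for Mki67 and 0.28 for Lgr5. The part of these cell types and of proliferation in the values of the 9 genes and of the processome genes was not tested.

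The genes whose log2 CPM followed Calhm3 most closely over the 9 libraries were Pik3r5 (Pearson r = 0.9965), Dclk1 (0.9914), Trpm5 (0.9895), Fbxl21 (0.9868) and Strip2 (0.9804), out of 12693 genes with a mean of at least 1 CPM. For Neurl1a they were Ildr1 (0.9904), Fosl2 (0.9791), Tmem229a (0.9758), Hif1a (0.9749) and AI593442 (0.968). Dclk1 and Trpm5 belong to the list of tuft cell markers, and none of these 10 genes lies on chromosome 19. These values describe a likeness over libraries that share their genotype groups, depth and scaling, and Villin KO 1 is an extreme point for both genes.

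Sh3pxd2a, the podosome scaffold and the farthest of the 9 genes, lay above WT in AhCre and below WT in Villin without passing the adjusted test. It had 4.12 and 4.86 CPM in AhCre KO, against 2.97 and 3.80 CPM in AhCre WT. It had 1.43 and 0.771 CPM in Villin KO, against 3.06, 2.82 and 1.93 CPM in Villin WT. The groups did not overlap in either driver, where 23.4% of all tested genes lay above in AhCre and 19.8% below in Villin. The log2 fold change was 0.41 ± 0.50 (SE) in AhCre and -1.26 ± 0.56 in Villin, with edgeR adjusted p of 1.0 and 0.177. The difference of the KO effects was 1.67 (95% interval 0.05 to 3.29), with an edgeR adjusted p of 0.306. Villin KO libraries held 7 and 5 counts of it, against 17, 22 and 10 in Villin WT.

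The 7 tested genes as a group had a median log2 fold change of 0.61 in Villin, 0.41 in AhCre and 0.47 for the average, beside -0.18, -0.0048 and -0.095 over all tested genes. Calhm3 is among the 7 and passed the filter through the groups where it is high. These medians and the counts that follow are therefore no measure of the neighbourhood. Libraries of KO and WT did not overlap for 5 of the 7 in Villin, 3 above and 2 below, where 14.5% of all genes lay above and 19.8% below. In AhCre they did not overlap for 6 of the 7, 5 above and 1 below, where 23.4% of all genes lay above and 25.1% below. Calhm3 and Neurl1a lay above WT in both drivers, as did 3.42% of all genes, and Taf5 lay below in both.

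**Figure D3:**
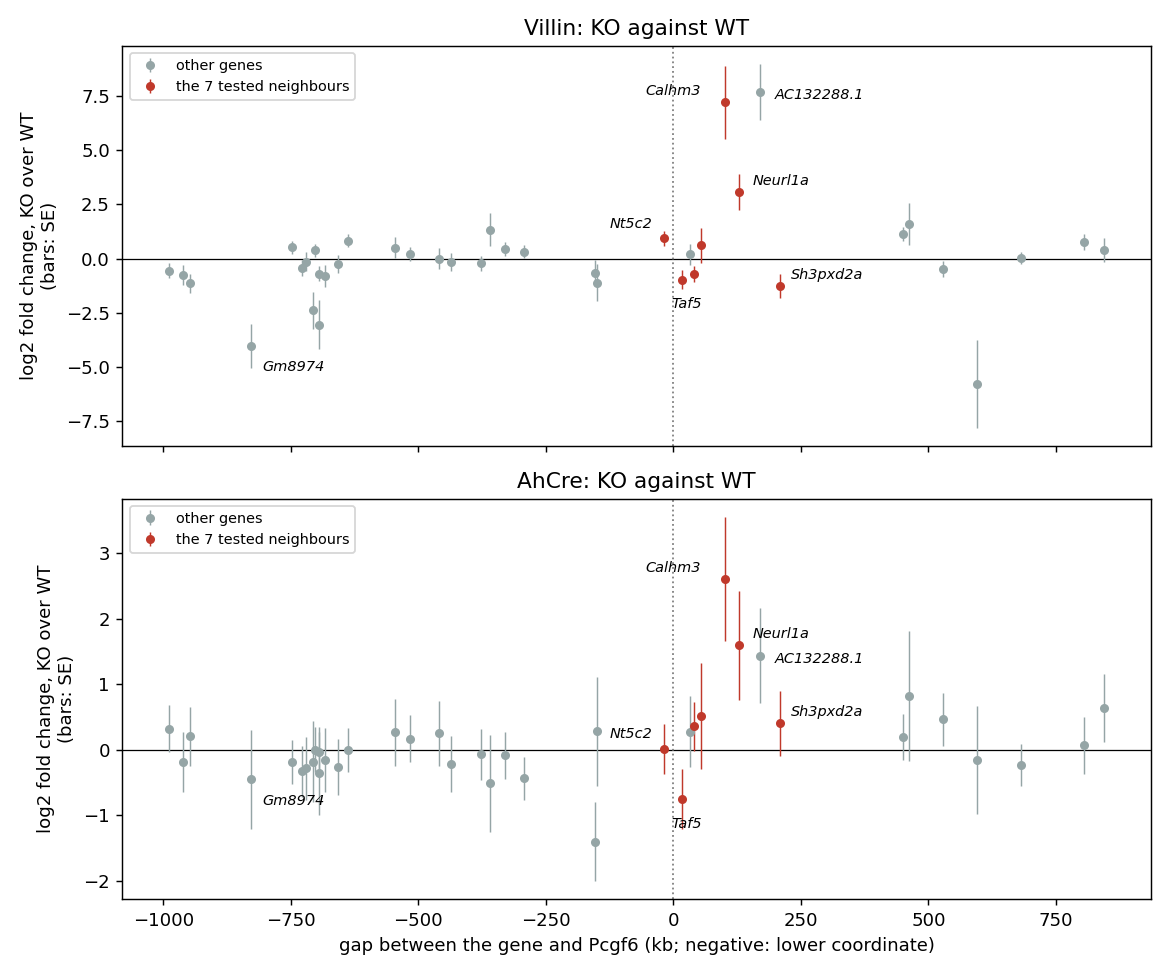
Log2 fold change of KO over WT (y axis, bars are SE) in Villin (top) and AhCre (bottom) for the 40 tested genes within 1 Mb of Pcgf6 against their gap to Pcgf6 in kb (x axis), with the 7 tested neighbours in red and other genes in grey. Nt5c2 at 0.93 and Taf5 at -0.96 lie closer to 0 than Calhm3 at 7.22 and Neurl1a at 3.07 in Villin, and most genes beyond 250 kb lie within 2 of 0.

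The wider neighbourhood was set beside the 9 genes. Within 1 Mb of Pcgf6 on either side there were 67 annotated genes, 41 of them protein coding, and 40 were tested. In Villin, where 6.21% of all genes were called, 3 of the 40 were called higher, Calhm3, Neurl1a and AC132288.1, and 1 lower, the processed pseudogene Gm8974 at 828 kb, whose reads may also match its parent gene. None was called in AhCre by edgeR, with 2 at an unadjusted p under 0.05, where 3.53% of all genes were. There were 4 AhCre calls by limma-voom, which called 518 higher and 393 lower of 16250 genes. For the difference none was called by edgeR, with 4 at an unadjusted p under 0.05. The median log2 fold change of the 40 was -0.07 in Villin. Outside the 7 tested neighbours, 33 genes were tested and 2 were called in Villin, AC132288.1 inside the Neurl1a body and Gm8974. Calhm3 and AC132288.1 reached 1 CPM only in KO libraries, and Gm8974 only in Villin WT libraries. They passed the filter through the groups where they are high, so the shares of the 40 and of the 33 are no measure of the window.

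Usmg5, which lies between Taf5 and Pdcd11 and encodes a small protein of the mitochondrial ATP synthase, had log2 fold changes of 0.20 ± 0.49 (SE) in Villin and 0.28 ± 0.54 in AhCre by edgeR. Stn1, a telomere replication factor beyond Sh3pxd2a, lay above WT in both drivers, as did 3.42% of all tested genes. Its log2 fold change was 1.14 ± 0.32 (SE) in Villin (edgeR adjusted p = 0.0516) and 0.20 ± 0.34 in AhCre, and it was not called. Stn1 was singled out after its values were seen. Gm8974 had 0 and 1 counts in Villin KO, against 13, 11 and 6 counts in Villin WT, a ratio of 0.0544 (95% interval 0.00133 to 0.327 for counting error). In AhCre it had 5 and 4 counts in KO, against 8 and 7 counts in WT. The Villin call of Gm8974 was lost without any 1 library other than Villin WT 3 or Villin KO 2.

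Partners of the 9 proteins encoded elsewhere were mostly not called. In Villin 2 of 30, 2 of 20, 1 of 14 and 1 of 14 genes were called in the 4 lists with any call, beside 6.21% of all tested genes, so these shares are near the background. Of 16 tested genes on a list of TFIID subunits and related TAF genes, none was called in any comparison by edgeR. At an unadjusted p under 0.05 there were 2 in Villin and 0 in AhCre. The median log2 fold change of the 16 for the average was -0.11, beside -0.86 for Taf5. Taf12 and Taf13, the most abundant of them, had 0.25 ± 0.21 and 0.15 ± 0.22 (SE) for the average. Of 30 genes of the small-subunit processome, which matures ribosomal RNA as PDCD11 does, Fbl (log2 fold change -1.51) and Utp20 (-1.73) fell in Villin, and the median of the 30 was -0.35 there and 0.13 in AhCre. For Pdcd11 the values were -0.70 and 0.36. Nop56 and Nop58, the most abundant, were not called, with -0.47 and -0.15 for the average.

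Of 20 tested genes of nucleotidases and purine salvage, 2 rose in Villin, Nt5e and Ada, and the median of the 20 was -0.10. Nt5e, the ecto-nucleotidase that makes adenosine at the cell surface, had a log2 fold change of 2.10 ± 0.42 (SE) in Villin (edgeR adjusted p = 0.0187), 1.31 ± 0.47 in AhCre (adjusted p = 1.0) and 1.70 ± 0.32 for the average (adjusted p = 0.0252). Ada, adenosine deaminase, had 1.65 ± 0.41 in Villin (edgeR adjusted p = 0.039). Of the Calhm family outside the cluster, Calhm6 was the 1 tested gene, with -0.19 ± 1.07 in Villin and 1.69 ± 1.05 in AhCre, and it was not called.

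Of 14 neuralized, Notch ligand and Notch target genes, 1 fell in Villin, the ligand Jag2 (log2 fold change -4.08 ± 0.95 (SE), edgeR adjusted p = 0.0311), and none was called for the average. Neurl3, the most abundant of them, had 0.39 ± 0.22 for the average, and Hes1 had -0.25 ± 0.24. Of 14 podosome genes, 1 fell in Villin, the NADPH oxidase activator Noxa1 (-1.66 ± 0.31, edgeR adjusted p = 0.0147), and for the average it had an adjusted p of 0.0515. Cyba and Cttn, the most abundant of these, had -0.57 ± 0.33 and 0.53 ± 0.22 for the average and were not called. Of 4 tested intermediate filament genes, none was called by edgeR or at an unadjusted p under 0.05, with 0.40 ± 0.37 for Vim and -0.21 ± 0.63 for Nefm. Villin calls of single partner genes depend on the libraries included, with 0 without Villin KO 1 and 15 without Villin KO 2 in place of 6.

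**Figure D4:**
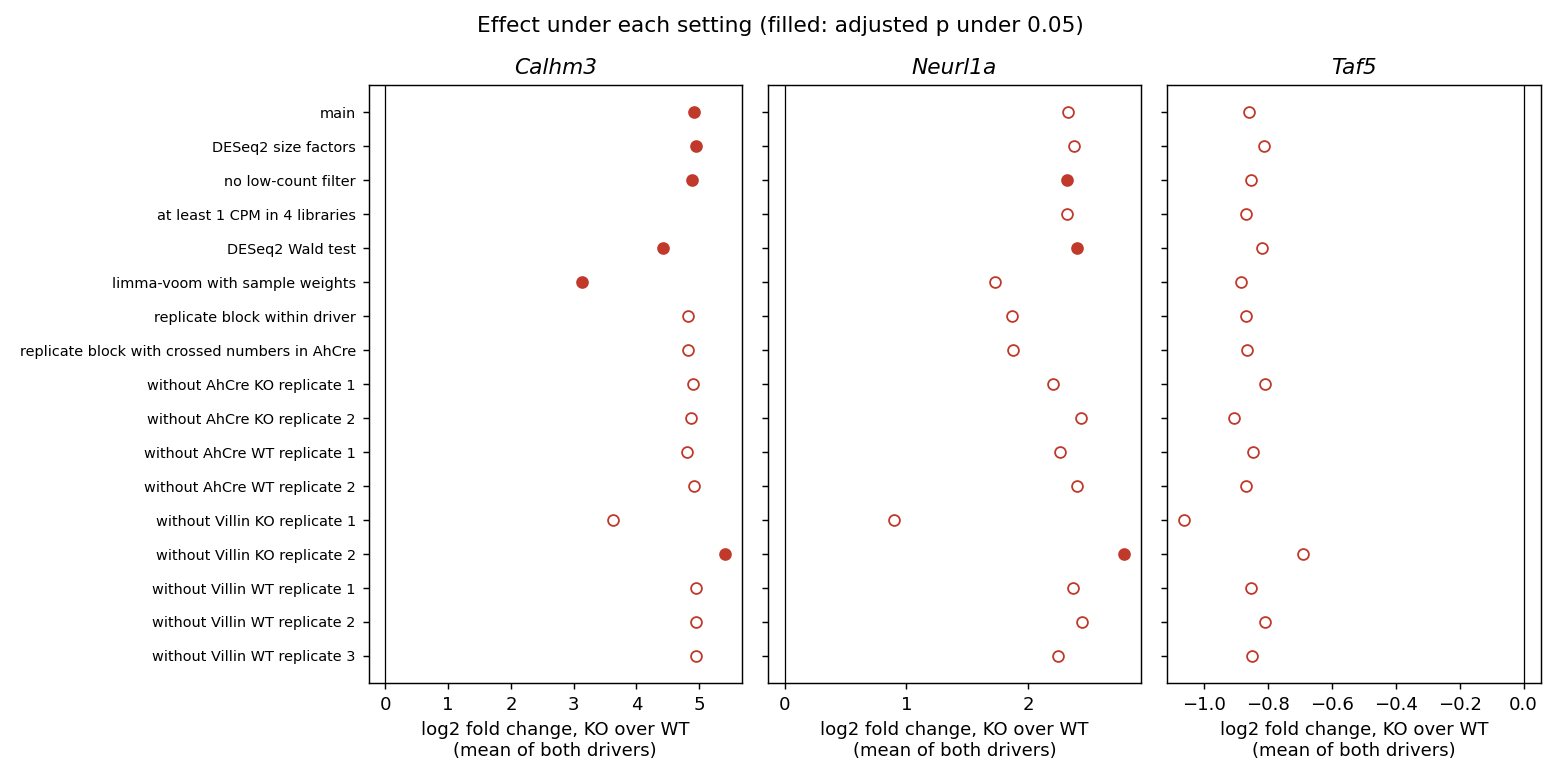
Log2 fold change of KO over WT averaged over both drivers (x axis) for Calhm3, Neurl1a and Taf5 under each processing setting (y axis); filled points have an adjusted p under 0.05 and open points do not. Calhm3 and Neurl1a stay above 0 and Taf5 stays below 0 under each setting drawn, most points are open, and Calhm3 has no point with the filter of at least 1 CPM in 4 libraries because it was not tested there.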

How the data were processed

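RNA-seq counts per gene in 9 libraries were used as deposited by the authors. Reads were aligned with STAR 2.7 to mm10 (GRCm38) and featureCounts and DESeq2 1.20 were also used, per the submitters' processing notes, and libraries were made from 2 ng of RNA per the labels' protocols. Neither the strand setting nor the annotation release is stated in these sources; all 55341 gene names match GENCODE M21, whose coordinates were used.

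The test was edgeR 4.0.16 (R 4.3.3): filterByExpr on the 4 groups left 16250 genes, libraries were scaled by TMM, and 1 mean per group was fitted by quasi-likelihood to all libraries (5 residual degrees of freedom, biological coefficient of variation 0.332). Contrasts were KO against WT within each driver, their average and their difference. The replicate numbers do not mark shared mice or days in the labels. Counting intervals cover counting error only, since they are taken from counts summed over the libraries of a group. They leave out the spread between libraries. These reads carry no molecular identifiers, so copies of the same molecule count as separate reads and the intervals may be too narrow.

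Other settings tried were scaling by DESeq2 size factors, testing all genes with counts, a filter of at least 1 CPM in 4 libraries, DESeq2 1.42.0 (Wald test), voom with sample weights in limma 3.58.1, each driver fitted alone, a replicate block, a window of 500 kb and each library left out. Named were Pcgf6, the 9 neighbours, window genes called in any contrast and the nearest protein-coding gene on each side. Also named were up to 4 called genes of each partner list (by smallest p) or else the 2 most abundant, and the 5 genes most like each called neighbour. Partner genes called in Villin were added to these, and Usmg5, Stn1 and the called epithelial markers were chosen after their values were seen. The 9 genes and all lists were chosen with earlier results of these data known.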

Additional observations from a re-analysis of the deposited data

Results flagged for a closer look

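The estimated KO effects on Sh3pxd2a, the podosome scaffold gene, had opposite signs in the 2 drivers, with no call in either. The 95% interval in AhCre was -0.67 to 1.48. Both AhCre KO libraries lay above both AhCre WT libraries, as for 23.4% of all tested genes. Both Villin KO libraries lay below the 3 Villin WT libraries, as for 19.8% of all tested genes. The difference of the log2 fold changes (AhCre minus Villin) was 1.67, with an edgeR adjusted p of 0.306, so it did not pass the test. It ranged from 1.27 to 2.15 when 1 library was left out, with adjusted p of 0.205 to 0.663.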

How the results depend on the processing

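Calls among the 7 tested neighbours depend on the processing, and the causes were not tested. In Villin the count of 2 became 1 with at least 1 CPM in 4 libraries (Calhm3 was then not tested), 0 with limma-voom, 0 with Villin fitted alone and 0 to 3 with a library left out (3 without Villin KO 2, with Nt5c2). In AhCre the count of 0 became 2 with limma-voom and 2 with AhCre fitted alone. For the average the count of 1 became 2 with no low-count filter, 2 with the DESeq2 Wald test, 0 with at least 1 CPM in 4 libraries and 0 to 2 with a library left out. Window calls of 4 in Villin became 2 with at least 1 CPM, 0 with limma-voom, 1 with Villin alone and 0 to 8 with a library left out; AhCre calls of 0 became 4 with limma-voom and 3 alone; calls of 2 for the average became 1 with at least 1 CPM and 0 to 3 with a library left out; and calls of 0 for the difference became 0 to 1 with a library left out. The 6 Villin partner calls became 0 with limma-voom, 1 with Villin alone and 0 to 15 with a library left out. The 0 AhCre partner calls became 5 with limma-voom and 6 alone. The 1 partner call for the average became 3 with no filter, 4 with the DESeq2 Wald test, 3 with limma-voom and 0 to 8 with a library left out, and the 0 for the difference became 1 with no filter and 0 to 4 with a library left out.

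Signs turned for Nt5c2 in AhCre (main value 0.01), which was -0.0050 with DESeq2 size factors and with the DESeq2 Wald test and -0.075 to 0.095 with a library left out. With a library left out, Calhm2 in Villin was -0.32 to 2.20, and the differences of the KO effects were -1.68 to 0.84 for Calhm2, -2.39 to 1.39 for Neurl1a and -0.13 to 0.62 for Taf5.

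Deviations from the group mean in same-numbered libraries had correlations of -0.107 in AhCre and 0.061 and -0.216 in Villin. In a group of 2 libraries the deviations mirror each other, so these values cannot show whether the numbers pair libraries. With a replicate block the counts were 0 for the neighbours and 0 for the window in Villin and for the average, and 3 in Villin and 0 for the average for the partners. With the AhCre numbers crossed, an alternative chosen after seeing the data, all 6 of these counts were 0. Over all genes the 1009 Villin calls ranged from 40 without Villin KO 1 to 1928 without Villin KO 2, and the 1 AhCre call became 911 with limma-voom and 1029 alone. Counts under 30 in each Villin library limit Ina, Calhm1, Calhm2, Calhm3 and Sh3pxd2a, and counts of 3 to 7 limit Neurl1a in 4 of the 5 Villin libraries. All alternatives for the window and the partners were also chosen after seeing the data.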
